A study of Mus musculus with 25 samples.

Results

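Tibialis anterior muscles of mice killed 7 days after a freeze injury were compared with uninjured tibialis anterior muscles. The comparison held 5 of the 25 arrays of the series, chosen by their labels alone, namely the 2 labelled freeze at 7 days (samples 440 and 454, all there are) and the 3 labelled control. A steel probe 6 mm across, cooled to the temperature of dry ice, had been held on the muscle for 10 s, per the labels. Control muscles had no treatment listed. All mice were female C57BL/6J, 2 to 3 months old, and RNA was of the whole muscle. Some probe sets may pick up more than 1 transcript, as their suffixes mark, among them those of Myh8, Atp2a2, Tnnt1, Igf2, Maged2, Mmp12, Nid2, Plagl1, Actc1, Tubb6, Ighm, Gadd45b and Ces1d. Values are MAS5 signals of Affymetrix MG-U74Av2 arrays, and differences are in log2(signal + 13) ± SE, a scale that understates the changes of dim genes. Of 12488 probe sets, 10833 carried 1 gene symbol. After a filter on low values 6919 genes were tested, each through its brightest probe set. Muscles taken 7 days after injury by 150 eccentric contractions (samples 425, 439 and 453) and 3 days after freeze (samples 436, 450 and 468) were used to ask where freeze at 7 days differed.

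Skeletal muscle regenerates from satellite cells, stem cells that lie under the basement membrane of the fibre. After injury they divide, turn on the myogenic regulatory factors Myf5, Myod1, myogenin and Myf6 in turn, and fuse into myotubes. New fibres first make the embryonic and perinatal myosins, cardiac and slow troponins and the fetal acetylcholine receptor, and exchange them later for adult isoforms. Macrophages clear dead fibres and fibroblasts lay down matrix over the same days.

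The 2 freeze arrays correlated at r = 0.973 over the 12422 probe sets that are not Affymetrix controls, and the 3 controls at 0.938 to 0.957. Between freeze and control arrays r was 0.888 to 0.920. Other groups enter through the shared fit, since 1 estimate of the spread came from all 25 arrays. Among them, sample 436, labelled freeze at 3 days, correlated at 0.800 to 0.802 with the other arrays of its label and at 0.947 to 0.952 with the controls. Counts are therefore given with and without that sample, while changes between freeze at 7 days and control do not depend on it. Nothing in the labels tells whether 2 muscles came from 1 mouse. The p-values therefore reflect only how these samples scatter, which may be technical in part.

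All 8 muscle fibre markers were bright in both groups, with a summed signal of 74485 to 77996 after freeze and 93461 to 153338 in controls. The summed signal of 8 macrophage markers was 4522 to 4814 after freeze, against 380 to 526 in controls, although the marker Fcer1g was near the floor in both. For 5 fibroblast markers the sums were 11704 to 12208 and 2098 to 3867, and for 6 endothelial markers 1050 to 1136 and 939 to 1187. Neutrophil markers summed to 124 to 133 after freeze and 185 to 213 in controls, but they were dim and none of the 4 tested was called. Among them Camp had a lower mean after freeze (37.9 against 91.3) and S100a8 a higher one (37.8 against 27.9). In whole muscle, fewer cells of a type and less RNA per cell cannot be told apart. The ratio of 3' to 5' signal of the beta-actin control probes was 0.808 and 0.776 after freeze and 0.560 to 0.595 in controls, while that of Gapdh was 0.797 and 0.946 after freeze and 0.869 to 1.13 in controls. The part of cell makeup and of RNA quality in the results was not tested.

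At 7 days after freeze more genes rose than fell. The named rises included Myh3 and Myh8 of the developing sarcomere, Postn and Tnc of the matrix, Apoe and Lyz2 of phagocytes and the imprinted Igf2 and Cdkn1c. Of the 6919 genes, 264 rose (3.82%) and 123 fell (1.78%) at an adjusted p under 0.05 by limma with Benjamini-Hochberg adjustment. Without sample 436, 857 rose (12.4%) and 599 fell (8.66%), among them all 387 called with it. The counts of each gene list below are to be set against these shares of all genes. The median change of all genes was -0.04. There were 17 genes over 16-fold higher and 1 gene over 8-fold lower. At least 2-fold changes with no overlap between the 2 freeze and 3 control arrays at an adjusted p under 0.05 were found for 235 genes that rose and 87 that fell. For comparison, both freeze arrays lay above all 3 controls in 24.3% of genes and below them in 24% of genes.

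With 2 freeze arrays many calls rested on single samples. Among 96 named genes that passed the test, 19 kept the call without freeze sample 440 and 21 without 454. Without control 1, 2 or 3 the numbers were 52, 73 and 40. The call was kept without each of the 5 arrays in turn by 18 of the 96. These were the sarcomere and muscle genes Myh3, Myh8, Myl4, Tnni1, Tnnt1, Atp2a2, Csrp3 and Ankrd1, the imprinted genes Igf2, Dlk1 and Cdkn1c, the MAGE family gene Maged2, and the secreted or matrix genes Postn, Tnc, Mfap2, Dpt and C1qtnf3. The only fall among the 18 was Slc27a1. None of the 96 changed sign when 1 of these arrays was left out.

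Genes of the developing sarcomere were among the largest rises. Of 19 tested members of the embryonic and developmental sarcomere list, 11 rose and 0 fell, with a median of 1.90. The list also holds genes that are not of the sarcomere, and Dlk1, Nes and Acta2 are among the 11. Tnni1, Csrp3, Dlk1 and Acta2 are counted in other lists as well. The count of rises was 7 without sample 440, 9 without 454, 10 to 11 without a control and 15 without sample 436. Myh3, which encodes the embryonic myosin heavy chain, had signals of 1238.2 and 1018.0 after freeze, against 4.6, 1.1 and 19.7 in controls. It rose 56.5-fold (5.82 ± 0.79, adjusted p = 0.000174), a fold that depends on the 13 units added, since the control signals are of that size or below. Myh8, the perinatal myosin heavy chain gene, had 1520.5 and 1162.9 after freeze and 34.5, 24.2 and 32 in controls. Its groups were far apart on every array, a 31.2-fold rise (4.96 ± 0.31, adjusted p = 1.59e-09) with the smallest p of all named genes. Myl4, the embryonic and atrial essential light chain gene, had 2818.3 and 2527.6 after freeze and 68.7 to 106.1 in controls, and rose by 4.82 ± 0.58 (adjusted p = 3.55e-05). Tnnt2, the cardiac troponin T gene that immature muscle also uses, had 454.2 and 408.1 after freeze and 21.8, 29.4 and 33.9 in controls (3.43 ± 0.58, adjusted p = 0.00203).

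**Figure D1:**
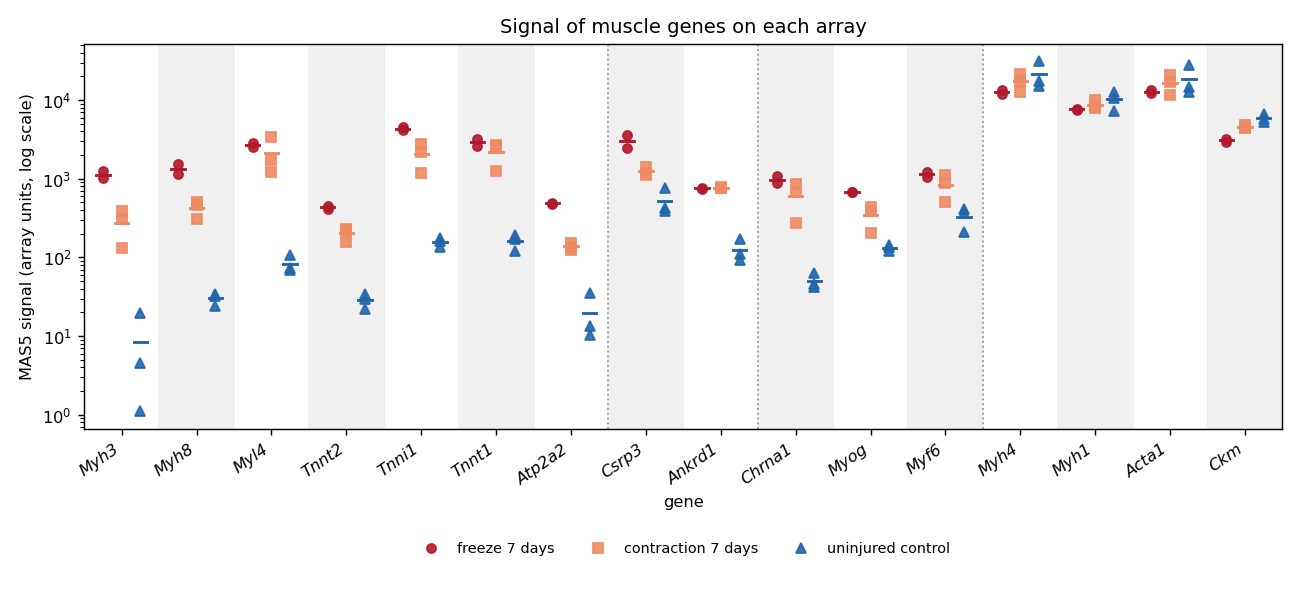
MAS5 signal (log axis) of 16 muscle genes on each array, with a short line at each group's mean: freeze at 7 days (circles, 2 arrays), contraction at 7 days (squares, 3) and uninjured control (triangles, 3). From Myh3 to Myf6 the freeze arrays lie above all controls, whereas in the adult genes Myh4, Myh1, Acta1 and Ckm they lie within or below them.

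Genes of slow troponins and of the slow calcium pump rose beside them. Tnni1, slow troponin I, had 4151.2 and 4498.3 after freeze, against 175.1, 161.5 and 135.0 in controls, and rose 25.6-fold (4.68 ± 0.80, adjusted p = 0.00203). Tnnt1, slow troponin T, had 3217.6 and 2591.4, against 191.0, 119.2 and 169.0 in controls (4.09 ± 0.67, adjusted p = 0.00147). Atp2a2, the SERCA2 pump of slow and developing fibres, had 497.2 and 474.7 after freeze and 13.3, 35.5 and 10.2 in controls (4.01 ± 0.42, adjusted p = 1.45e-05). Together with slow troponin C (Tnnc1, 3.10 ± 0.54, adjusted p = 0.00232) these were the 4 of 13 slow fibre genes that rose. The count was 3 without sample 440 and 4 without 454 or any control. Without sample 436 it was 4, beside 1 fall. The slow myosin gene Myh7 had signals of 135.7 and 132.7 after freeze and 104.5 to 136.5 in controls, a difference of 0.12 ± 0.34 (adjusted p = 0.858). Myl3, the slow ventricular light chain gene, went the other way in value, with 280.9 and 264.9 after freeze and 548.2 to 1475.3 in controls (-1.75 ± 0.61). Its adjusted p was 0.0905, and 0.00416 without sample 436. The slow list as a whole had a median of 0.12.

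Adult fast isoforms did not pass the test. Of 23 fast fibre genes, 0 rose and 0 fell by limma, although the median was -0.59 and both freeze arrays lay below all 3 controls for 19 of them. At an unadjusted p under 0.05 there were 3. Without sample 436, 2 rose and 6 fell, and without control 2, 1 rose. Myh4, the fast IIB myosin heavy chain gene, had 13460.2 and 11918.2 after freeze and 15067.9, 17696.2 and 30947.1 in controls (-0.67 ± 0.53, adjusted p = 0.450). Ckm, muscle creatine kinase, had 3210.1 and 2938.3 after freeze and 5317.9 to 6651.3 in controls (-0.94 ± 0.62, adjusted p = 0.366, and 0.00288 without sample 436). With quantile normalization in place of the authors' scaling the fast list median was -0.14, Myh4 stood at -0.03 and Atp2a1 at -0.07. The values of Myh1 and Acta1 turned positive (0.02 and 0.21), while Ckm stayed at -0.84. No direction is therefore given for the adult fast genes as a list. Within protein families the developmental or slow member and its adult partner can be set side by side. For the heavy chains Myh3 had 5.82 ± 0.79 and Myh4 -0.67 ± 0.53. For troponin I, Tnni1 had 4.68 ± 0.80 and Tnni2 -0.55 ± 0.44. For the SERCA pumps Atp2a2 had 4.01 ± 0.42 and Atp2a1 -0.75 ± 0.49. The difference between partners was not tested as such. Sarcomeric actin differed less, with Actc1 at 0.49 ± 0.29 and Acta1 at -0.44 ± 0.47, neither called. The other probe set of Actc1 stood at 1.03, also not called. Neither member was called in the calsequestrin, cytochrome oxidase VIa and phosphofructokinase pairs either.

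**Figure D2:**
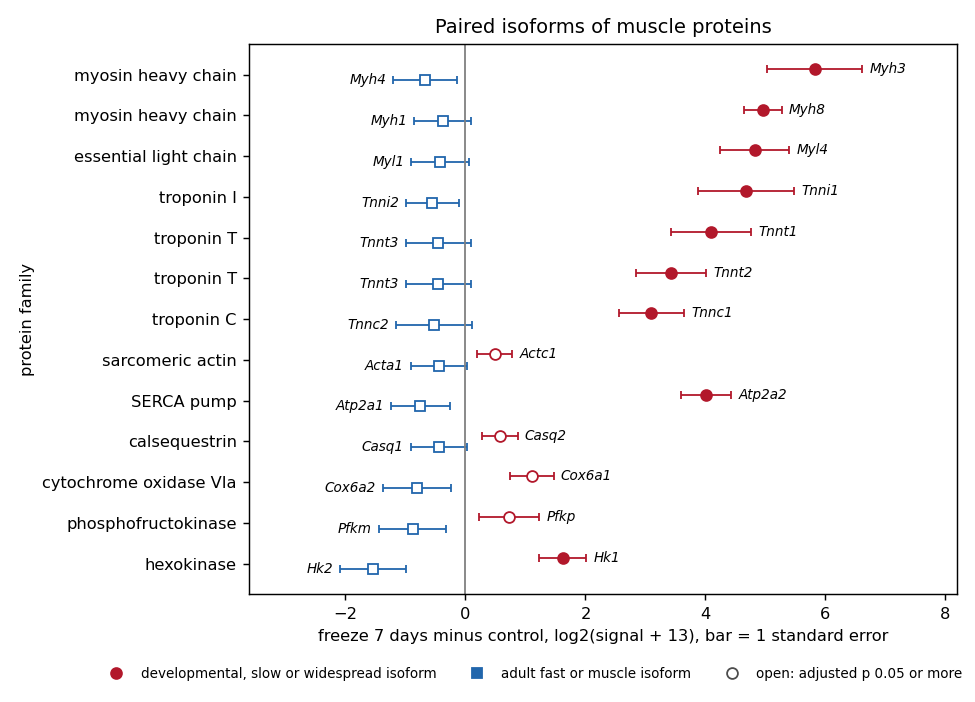
Change after freeze at 7 days against control (log2 of signal + 13, bar = 1 SE) for 13 pairs of muscle protein isoforms. Filled symbols have an adjusted p under 0.05. Developmental, slow or widespread isoforms (circles) lie to the right of 0 in all 13 pairs, from 0.49 for Actc1 to 5.82 for Myh3. The adult fast or muscle isoforms (squares), all open, lie to its left, although Myh1 and Acta1 turn positive (0.02 and 0.21) with quantile normalization. The pairs are a chosen set. The slow fibre genes Myl3 (-1.75) and Tpm3 (-0.28), not shown and not called with all arrays, lie to the left.

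Csrp3 and Ankrd1, both on the sarcomere list, rose too. Csrp3, a muscle LIM protein of the Z-disc, had 2425.2 and 3635.7 after freeze and 764.5, 422.3 and 384.0 in controls (2.54 ± 0.35, adjusted p = 0.00018), and Ankrd1, a titin-binding ankyrin repeat protein, had 744.3 and 770.4 against 92.5 to 170.2 (2.53 ± 0.38, adjusted p = 0.000633). Csrp3 was the only 1 of 19 Z-disc, titin and costamere genes that rose with all arrays. Nrap, which helps to build myofibrils, had a difference of -0.71, and the list median was -0.10.

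The myogenic factor genes Myog, Myf6 and Myf5 rose. Of 23 myogenic and satellite cell genes 4 rose and 0 fell, with 9 rises and 1 fall without sample 436. The 4 lost their calls without sample 440, without 454 and without control 3, and 2 were left without control 1 or 2. Myog, which encodes myogenin, had 673.0 and 682.6 after freeze and 135.0, 118.9 and 143.8 in controls (2.25 ± 0.64, adjusted p = 0.0439). Myf6 had 1229.5 and 1048.8 against 414.4, 363.7 and 210.6 (1.80 ± 0.39, adjusted p = 0.0126), and Myf5 had 54.0 and 46.3 against 4.2 to 12 (1.59 ± 0.41, adjusted p = 0.0302). The fourth was Id3, an inhibitor of such factors (1.07 ± 0.29, adjusted p = 0.032). Myod1 had signals of 670.8 and 662.2 after freeze and 220.8 to 334.0 in controls (1.26 ± 0.45), which did not pass with all arrays (adjusted p = 0.0945) and did without sample 436 (adjusted p = 0.00448). Id2 stood at 2.60 ± 0.77 with an adjusted p of 0.0504. Pax7 had no probe set with a single symbol. Among 13 genes of myoblast fusion and contact 1 rose, the tetraspanin gene Cd9 (1.26 ± 0.27, adjusted p = 0.0126), and 6 did without sample 436. The 1 rise was 7.69% of the list, against 3.82% of all genes. Cd9 lost its call without sample 440 or 454. Cdh15, M-cadherin, had 109.6 and 111.1 after freeze and 96.3 to 133.6 in controls (-0.05 ± 0.29).

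Among the subunits of the muscle acetylcholine receptor, the receptor of the nerve-muscle synapse that immature and denervated fibres make along their length, Chrna1 (alpha) rose most. It had 876.5 and 1075.8 after freeze, against 42.4, 45.5 and 64.2 in controls, a 15.6-fold rise (3.97 ± 0.78, adjusted p = 0.00679). Chrnb1 (beta) rose by 1.25 ± 0.24 (adjusted p = 0.00537). These were the 2 of 15 receptor and synapse genes that rose. The count was 0 without sample 440, 1 without 454, 2 without each control and 6 without 436. Chrng, the fetal gamma subunit, had 202.2 and 226.8 after freeze and 83.0, 19.3 and 24.2 in controls (2.22 ± 0.78, adjusted p = 0.0903, and 0.00644 without sample 436). Chrne, the subunit that replaces it in adult muscle, had 36.5 and 67.7 after freeze and 67.4 to 149.3 in controls (-0.82 ± 0.42, adjusted p = 0.234). The 3 probe sets of Chrne ranged from -0.82 to 0.80 and none was called, so its direction is not settled.

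Myogenic factors bind E-boxes, written CANNTG, of which CAGCTG is one form. The start regions of Chrna1 and Chrng, receptor genes high after freeze, and of Myog and Myh3 are shown for their E-boxes. They are RefSeq promoter windows of build GRCm38.p6, 250 bases before to 50 after the annotated start, 5' to 3' on the strand of the gene, with CANNTG in capitals. The windows are chr2:73580289-73580588 (minus strand) for Chrna1, chr1:87205561-87205860 (plus) for Chrng, chr1:134289754-134290053 (plus) for Myog and chr11:67078050-67078349 (plus) for Myh3.
Chrna1: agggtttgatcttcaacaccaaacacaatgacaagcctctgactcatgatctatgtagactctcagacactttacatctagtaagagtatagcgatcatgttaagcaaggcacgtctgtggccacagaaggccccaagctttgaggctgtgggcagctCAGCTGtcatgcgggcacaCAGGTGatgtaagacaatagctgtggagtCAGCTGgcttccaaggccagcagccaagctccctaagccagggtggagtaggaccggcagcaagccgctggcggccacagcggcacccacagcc
Chrng: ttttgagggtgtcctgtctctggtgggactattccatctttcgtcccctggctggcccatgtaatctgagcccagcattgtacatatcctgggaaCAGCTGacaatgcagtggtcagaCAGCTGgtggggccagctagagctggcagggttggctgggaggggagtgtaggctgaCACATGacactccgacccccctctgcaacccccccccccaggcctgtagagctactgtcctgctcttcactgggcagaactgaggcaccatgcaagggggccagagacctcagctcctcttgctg
Myog: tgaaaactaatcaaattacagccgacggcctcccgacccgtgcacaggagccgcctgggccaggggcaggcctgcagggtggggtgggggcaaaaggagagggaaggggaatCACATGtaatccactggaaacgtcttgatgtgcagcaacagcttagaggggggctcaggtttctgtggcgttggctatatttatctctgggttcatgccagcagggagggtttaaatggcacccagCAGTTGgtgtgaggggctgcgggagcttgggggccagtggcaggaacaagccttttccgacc
Myh3: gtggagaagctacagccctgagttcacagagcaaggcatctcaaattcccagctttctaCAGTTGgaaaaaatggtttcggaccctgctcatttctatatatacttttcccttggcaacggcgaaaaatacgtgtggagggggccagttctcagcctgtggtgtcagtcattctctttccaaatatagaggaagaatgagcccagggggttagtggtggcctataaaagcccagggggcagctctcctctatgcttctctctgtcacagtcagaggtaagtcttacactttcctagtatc

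Chrna1 and Chrng each held 3 E-boxes, of which 2 read CAGCTG, Myog held 2 and Myh3 held 1, neither with CAGCTG. The motif reads the same on both strands. It was present in any form in 72.3% of all 32851 windows, and CAGCTG in 16.3% of them, with at least 2 CAGCTG in 1.9%. Among 5540 tested genes with a window, 17.9% held CAGCTG. For the sarcomere list this was 7 of 18 genes (38.9%) and for the receptor and synapse list 5 of 10 (50%). These shares are of whole lists, in which 11 of 19 and 2 of 15 tested genes rose, and not of the risen genes alone. All of these are matches of letters and no measure of binding.

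Several imprinted growth genes rose. Of 25 genes of the IGF system and imprinted growth list 10 rose and 0 fell, with a median of 0.84. The count was 5 without sample 440 or 454, 8 to 9 without a control and 12 without sample 436. Igf2, the fetal growth factor gene expressed from the paternal allele, had signals of 6174.2 and 5497.5 after freeze, against 630.7, 534.6 and 636.4 in controls. It rose 9.55-fold (3.25 ± 0.35, adjusted p = 1.51e-05). Its groups did not overlap, and the spread within each was small beside the distance between them. Cdkn1c, the p57 inhibitor of the cell cycle, had 1650.0 and 1447.4 after freeze and 111.2, 154.5 and 111.2 in controls (3.51 ± 0.46, adjusted p = 0.000116). Dlk1, a membrane protein related to Notch ligands, had 620.8 and 715.1 against 124.2, 75.1 and 116.0 (2.55 ± 0.31, adjusted p = 4.16e-05). Meg3, the noncoding RNA of the same imprinted cluster, had 2553.3 and 1413.8 against 49.7, 388.2 and 124.1 (3.66 ± 0.81, adjusted p = 0.014), and its 2 probe sets were both called. Mest rose by 3.48 ± 0.65 and Plagl1, a zinc finger factor, by 2.09 ± 0.41 (adjusted p = 0.00453 and 0.00649). Maged2, in no list, had 1497.3 and 1092.8 after freeze and 28.7 to 99.6 in controls (4.08 ± 0.56, adjusted p = 0.00018). Igf1 had 323.7 and 360.8 after freeze and 276.3 to 465.6 in controls by its brighter probe set (-0.12 ± 0.25, adjusted p = 0.794). Its other probe set stood at 2.37, also not called, so no direction is given for Igf1. H19 had no probe set with a single symbol.

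Among the 38 lists, which share some members, those of matricellular proteins and of collagens held the most rises by number. Of 28 genes of matricellular proteins and proteoglycans 15 rose, with a median of 1.54, and of 22 genes of fibrillar collagens and their processing 13 rose, with a median of 1.65. None of either list fell. Postn, which encodes the matricellular protein periostin, had 3898.1 and 4099.7 after freeze, against 69.1, 93.4 and 65.7 in controls, a 45.4-fold rise (5.51 ± 0.90, adjusted p = 0.00147). Tnc, tenascin C, a matrix protein of healing tissue and tendon, had 537.9 and 602.2 against 5.1, 23.6 and 61.4 (3.99 ± 0.66, adjusted p = 0.00159). Both genes had every freeze array many times above every control. Mfap2, a protein of elastic microfibrils, rose by 3.10 ± 0.48 (adjusted p = 0.000701). The matricellular count was 5 without sample 440 or 454, 8 to 11 without a control and 19 without sample 436.

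Among collagens, Col5a2 had 2380.6 and 2541.8 after freeze and 136.7, 117.3 and 58.3 in controls, and rose 22.2-fold (4.47 ± 0.91, adjusted p = 0.00827). Col3a1 had 3784.5 and 4364.3 against 374.9, 396.7 and 144.0 (3.80 ± 0.92, adjusted p = 0.0222), and Col1a1 had 8045.6 and 7779.8 against 979.5, 1063.6 and 504.5 (3.27 ± 0.90, adjusted p = 0.0366). The collagen count depended on both freeze arrays, with 2 rises left without sample 440 and 0 without 454, 5 to 10 without a control and 14 without sample 436. At the other end, the processing enzymes P4hb and P4ha2 had -0.26 ± 0.32 and -0.14 ± 0.18 and Col12a1 had -0.47 ± 0.44. C1qtnf3, which encodes a secreted protein with a C1q domain, had 444.9 and 509.6 after freeze and 7.5 to 25.1 in controls (4.19 ± 0.65, adjusted p = 0.000837).

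Of 19 basement membrane genes 7 rose, led by Sparc (2.42 ± 0.54, adjusted p = 0.0146), a collagen-binding protein, and Nid2 (2.32 ± 0.53, adjusted p = 0.016), a linker of laminin and collagen IV. The count was 1 without sample 440, 0 without 454, 1 to 5 without a control and 11 without 436. Matrix proteases and inhibitors rose in 6 of 21 genes, 0 without sample 440 or 454, 3 to 5 without a control and 11 without 436. Adam19 had 234.7 and 203.0 after freeze and 3.4 to 9.1 in controls (3.60 ± 0.71, adjusted p = 0.00664). Mmp12, the elastase of macrophages, had 285.6 and 263.3 against 7.5 to 28.3 (3.28 ± 0.79, adjusted p = 0.0215), and Mmp14, a membrane protease, rose by 2.30 ± 0.44 (adjusted p = 0.00533). Of the fibroblast and tendon markers 6 of 18 rose, among them Dpt, dermatopontin, with 311.2 and 285.5 against 62.2 to 87.6 (1.86 ± 0.25, adjusted p = 0.000174), and S100a4 (2.71 ± 0.72, adjusted p = 0.0313). That count was 2 without 440, 1 without 454, 3 to 4 without a control and 8 without 436. Most of the fibroblast marker sum given above came from Col1a1 and Dcn, with mean signals of 7913 and 3066 after freeze. Both are members of the matrix lists, so the sum is not a separate measure of fibroblasts. The part of cell makeup in the matrix rises was not tested.

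**Figure D3:**
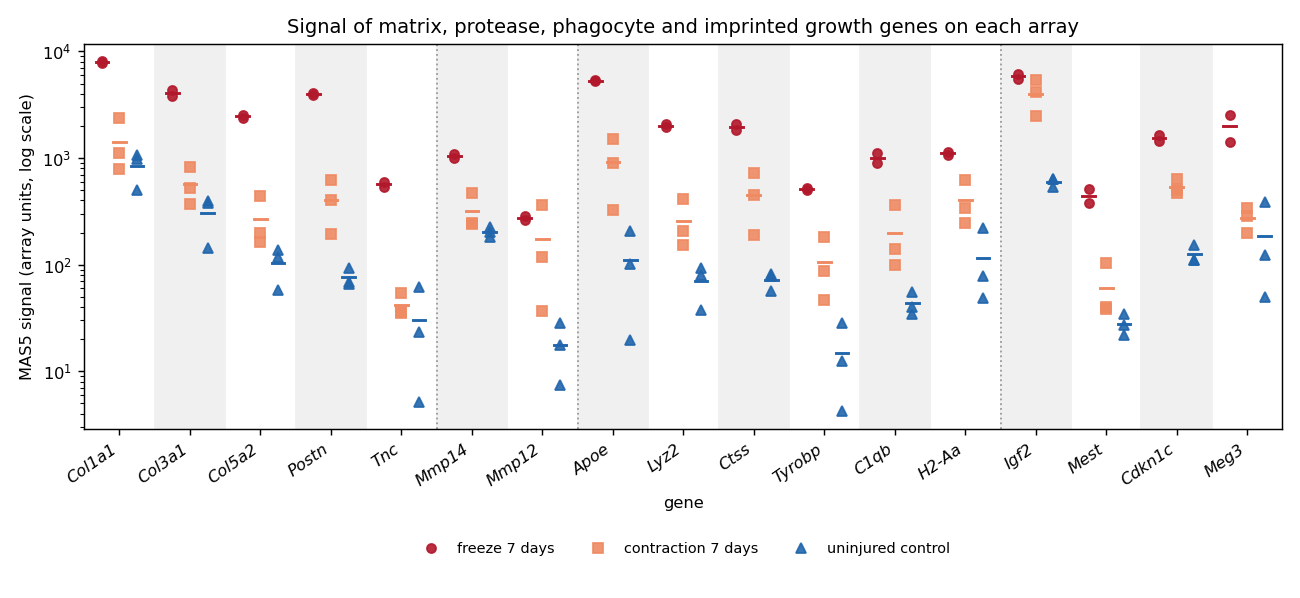
MAS5 signal (log axis) of 17 matrix, protease, phagocyte and imprinted growth genes on each array, with a short line at each group's mean: freeze at 7 days (circles, 2 arrays), contraction at 7 days (squares, 3) and control (triangles, 3). Both freeze arrays lie above all controls for every gene shown. The contraction arrays overlap the freeze arrays for Mmp12 and come close to them for Igf2.

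Phagocyte genes had some of the largest changes and also wide errors. Apoe, the apolipoprotein E gene that macrophages express, had 5403.1 and 5267.7 after freeze, against 102.2, 207.9 and 19.7 in controls, a 56.9-fold rise (5.83 ± 1.50, adjusted p = 0.0282). Lyz2, lysozyme of myeloid cells, had 1953.1 and 2065.7 against 79.5, 92.1 and 37.2 (4.68 ± 1.20, adjusted p = 0.0278). Tyrobp, a signalling adaptor of myeloid receptors, had 505.3 and 523.2 against 12.5, 28.2 and 4.2 (4.33 ± 1.08, adjusted p = 0.0249). The 2 freeze arrays were close to each other and far above every control for all 3 genes. Of 41 macrophage and phagocyte genes 7 rose and 1 fell, with a median of 1.18. Without sample 436, which shares the estimate of the spread, 22 rose and 1 fell. Without sample 440, 454, control 1 or control 3 none rose, and without control 2, 3 did. The 1 fall was Lpl, lipoprotein lipase, with 539.5 and 472.5 against 1441.6, 1377.4 and 2691.1 (-1.77 ± 0.35, adjusted p = 0.00785). Cd68, a macrophage membrane protein, had 359.5 and 321.2 against 71.5, 35.2 and 73.3 (2.32 ± 0.84), with an adjusted p of 0.10 with all arrays and 3.37e-07 without sample 436.

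Ctss, Glb1, H2-Aa and C1qb were among the rises in lysosomal, antigen presentation and complement genes. Of 34 lysosomal genes 5 rose (Ctss, Glb1, Ctsz, Ctsk and Cd63) and 0 fell, with 21 rises without sample 436. Ctss, cathepsin S, had 2085.5 and 1827.0 after freeze and 81.9, 78.5 and 56.2 in controls (4.54 ± 1.20, adjusted p = 0.0309). Of 20 genes of MHC class II and antigen presentation 4 rose (Ctss again, H2-Aa, H2-DMa and H2-Ab1), and 14 did without sample 436. H2-Aa had 1061.5 and 1145.7 after freeze and 79.0, 220.3 and 48.6 in controls (3.35 ± 0.93, adjusted p = 0.0391). Of 13 complement genes 3 rose (C1qb, C1qa and Serping1), and 6 without sample 436. C1qb, a chain of complement C1q, had 1103.1 and 902.9 against 34.7, 55.9 and 39.8 (4.18 ± 1.22, adjusted p = 0.0494), while its other probe set stood at -0.19. Interferon response genes rose in 2 of 28 (Ifi27 and Ifi35) and in 15 without 436, with a median of 1.12. Rises were 14.7% of the lysosomal, 20% of the MHC, 23.1% of the complement and 7.14% of the interferon list, against 3.82% of all genes. Without sample 436 that share of all genes was 12.4%. Without sample 440 none of these 4 lists had a rise, and without 454 only the interferon list did, with 1. Without a control the lysosomal count was 0 to 3, MHC 0 to 2, complement 0 to 1 and interferon 1 to 2.

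Cytokine, lymphocyte and granulocyte lists gave calls on small numbers of genes. Cytokine and chemokine rises were 11.1% of the list, against 3.82% of all genes. Lymphocyte falls were 15.4% of the list, and neutrophil and mast cell falls 6.67%, against 1.78% of all genes. Of 27 cytokine and chemokine genes 3 rose, namely Ccl8 (303.0 and 181.0 after freeze, 16.4 to 27.6 in controls, 2.81 ± 0.77, adjusted p = 0.0357), Ccl5 (1.97 ± 0.41, adjusted p = 0.00988) and Cxcl9 (1.89 ± 0.54, adjusted p = 0.0447). The list median was 0.02, and the count was 0 without either freeze array, 1 without any 1 control and 4 without sample 436. Ccl2, a chemokine that draws monocytes, had 43.9 and 22.8 after freeze and 4.6 to 13 in controls (1.15 ± 0.96, adjusted p = 0.478). Of 13 lymphocyte markers 0 rose and 2 fell. These were the B cell genes Ms4a1, with 45.7 and 43.9 against 103.9 to 131.6 (-1.17 ± 0.29, adjusted p = 0.0241), and Ighm (-0.86 ± 0.19, adjusted p = 0.0157), of whose 6 probe sets 1 was called. Of 15 neutrophil and mast cell markers the mast cell tryptase gene Tpsb2 fell, with 58.6 and 95.0 after freeze and 185.3 to 237.7 in controls (-1.33 ± 0.35, adjusted p = 0.0305), with its other probe set at 0.48. These falls were lost without sample 440 or 454. Without control 1 or 3 the lymphocyte count was 1, and without control 3 Tpsb2 was not called.

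Of 35 smooth muscle and cytoskeleton genes 8 rose and 0 fell, with 23 rises and 1 fall without sample 436 and a median of 1.17. The 8 rises were 22.9% of the list, against 3.82% of all genes. Without sample 440 or 454 the rises were 0 and 1, and without a control 1 to 3. Tmsb10, an actin-binding thymosin, had 3794.1 and 3874.7 after freeze and 218.1 to 326.8 in controls (3.81 ± 0.88, adjusted p = 0.0162). Tubb6, a beta tubulin, had 1200.7 and 1236.1 against 146.1 to 250.1 (2.55 ± 0.68, adjusted p = 0.0316). Myh11, the smooth muscle myosin gene, had a value of -0.53 ± 0.33. Of 58 cell cycle genes only Cdkn1c rose with all arrays, while without sample 436 24 rose and 1 fell. The 1 rise was 1.72% of the list, against 3.82% of all genes. Cdk1, the mitotic kinase, had 92.1 and 98.5 after freeze and 22.8, 16.7 and 13.4 in controls (1.83 ± 0.59, adjusted p = 0.068, and 0.00122 without 436). Stmn1, a tubulin-binding protein of dividing cells, had 235.7 and 298.0 against 17.7 to 37.6 (2.75 ± 0.86, adjusted p = 0.0626, and 3e-06 without 436). Of 41 heat shock and early stress genes 1 rose, the small GTPase gene Rrad (2.71 ± 0.68, adjusted p = 0.0258), and 1 fell, Gadd45b (-1.33 ± 0.31, adjusted p = 0.0173). Each is 2.44% of the list, against 3.82% higher and 1.78% lower among all genes. Rrad lost its call without each of the 5 arrays in turn and Gadd45b without each but control 3, while 13 rose and 2 fell without sample 436. Hspa1b, the inducible Hsp70 gene, had 74.1 and 67.6 after freeze and 14.5 to 41.1 in controls (1.00 ± 0.75, adjusted p = 0.424).

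Genes of protein synthesis and breakdown gave calls in small numbers. Rises were 3.12% of translation, 7.41% of ribosomal protein and 7.89% of protein degradation genes, against 3.82% of all genes. Falls were 0%, 3.7% and 2.63% of these lists, against 1.78% of all genes. Eef1a1, the widespread translation elongation factor, had 9487.1 and 9119.3 after freeze and 1886.0, 1699.8 and 1134.3 in controls (2.59 ± 0.67, adjusted p = 0.0297). Its muscle partner Eef1a2 had 7429.2 and 6001.1 against 8572.8 to 16622.9 (-0.69 ± 0.56, adjusted p = 0.468). Eef1a1 was the only 1 of 32 translation genes to rise, and lost the call without each of the 5 arrays, while 7 rose and 1 fell without sample 436. Of 27 ribosomal protein genes 2 rose and 1 fell, or 13 and 3 without sample 436, with a median of 0.61. Of the 2 rises 0 were left without each array other than control 2. Of 38 protein degradation genes 3 rose and 1 fell, with 10 and 3 without sample 436, 6 and 1 without control 2, and no calls without each other array of the 5. Map1lc3a, an autophagosome protein, had 3197.0 and 3292.2 after freeze and 995.6 to 1269.2 in controls (1.54 ± 0.38, adjusted p = 0.0241). Bnip3, which marks mitochondria for autophagy, fell, with 218.1 and 216.0 against 580.1 to 783.1 (-1.56 ± 0.41, adjusted p = 0.0296).

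Most genes of energy metabolism did not pass the test, and the medians of their lists were below 0. Of 30 glycolysis and glycogen genes 1 rose and 0 fell, at a median of -0.74, and without sample 436 1 rose and 13 fell. The rise was Hk1, the widespread hexokinase gene, with 2696.8 and 2496.8 against 595.6 to 1105.6 (1.62 ± 0.39, adjusted p = 0.0217). Hk2, the hexokinase of insulin-sensitive muscle, had 846.4 and 840.7 after freeze and 1921.6 to 3083.3 in controls (-1.54 ± 0.55, adjusted p = 0.0951, and 1.01e-05 without 436). In the TCA cycle and fatty acid oxidation list 2 of 41 genes fell, Ces1d and Cd36, at a median of -0.63, and 22 fell without sample 436. Cd36, a fatty acid carrier of the membrane, had 55.1 and 41.5 after freeze and 151.5 to 181.9 in controls (-1.57 ± 0.32, adjusted p = 0.00913). Of 52 respiratory chain genes 0 rose and 0 fell by limma with all arrays, at a median of -0.37, and 1 rose and 11 fell without sample 436. Over these 3 lists both freeze arrays lay below all controls for 22, 35 and 25 genes, against the 24% of all genes given above. Without sample 440 or 454 these lists had no calls. With all arrays the glycolysis rise was 3.33% of its list, against 3.82% of all genes. The TCA and fatty acid falls were 4.88%, against 1.78%. The muscle fibre marker sum was lower after freeze on the authors' scaling. Its 8 markers are all members of the fast fibre list, for which no direction is given above. The part of that sum was not tested.

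The 15 largest falls included several genes of lipid handling. Slc27a1, a fatty acid transport protein, had 91.6 and 61.5 after freeze and 391.3, 352.4 and 235.5 in controls (-1.91 ± 0.22, adjusted p = 2.37e-05). It had the smallest p among the falls named. Plin4, a coat protein of lipid droplets, had 82.8 and 95.0 against 591.5, 475.6 and 628.9 (-2.50 ± 0.61, adjusted p = 0.0222). Ces1d, a carboxylesterase, was lowest at -3.01 ± 0.85 (adjusted p = 0.0419), with 19.7 and 2.1 against 154.9 to 172.4, but its probe set is one of those shared by a gene family. Ptp4a3, a phosphatase, had 845.3 and 853.1 after freeze and 6314.1, 5232.8 and 5241.4 in controls (-2.70 ± 0.70, adjusted p = 0.0303). Egln1, the prolyl hydroxylase that senses oxygen, had 525.3 and 425.3 against 1849.0, 2126.6 and 3188.8 (-2.27 ± 0.57, adjusted p = 0.0258). Abcb4, Smyd2, Kif1c, Car14, Tspan8, Tlcd4, Gpr12, Adam3 and Bcl2l10 fell by 1.70 to 2.46. Of these falls only that of Slc27a1 kept its call without each of the 5 arrays in turn. Scd1, the fatty acid desaturase gene, rose against this pattern, with 941.3 and 633.0 after freeze and 163.3 to 206.8 in controls (1.99 ± 0.31, adjusted p = 0.000832), although 1 of its 3 probe sets stood at -0.79.

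**Figure D4:**
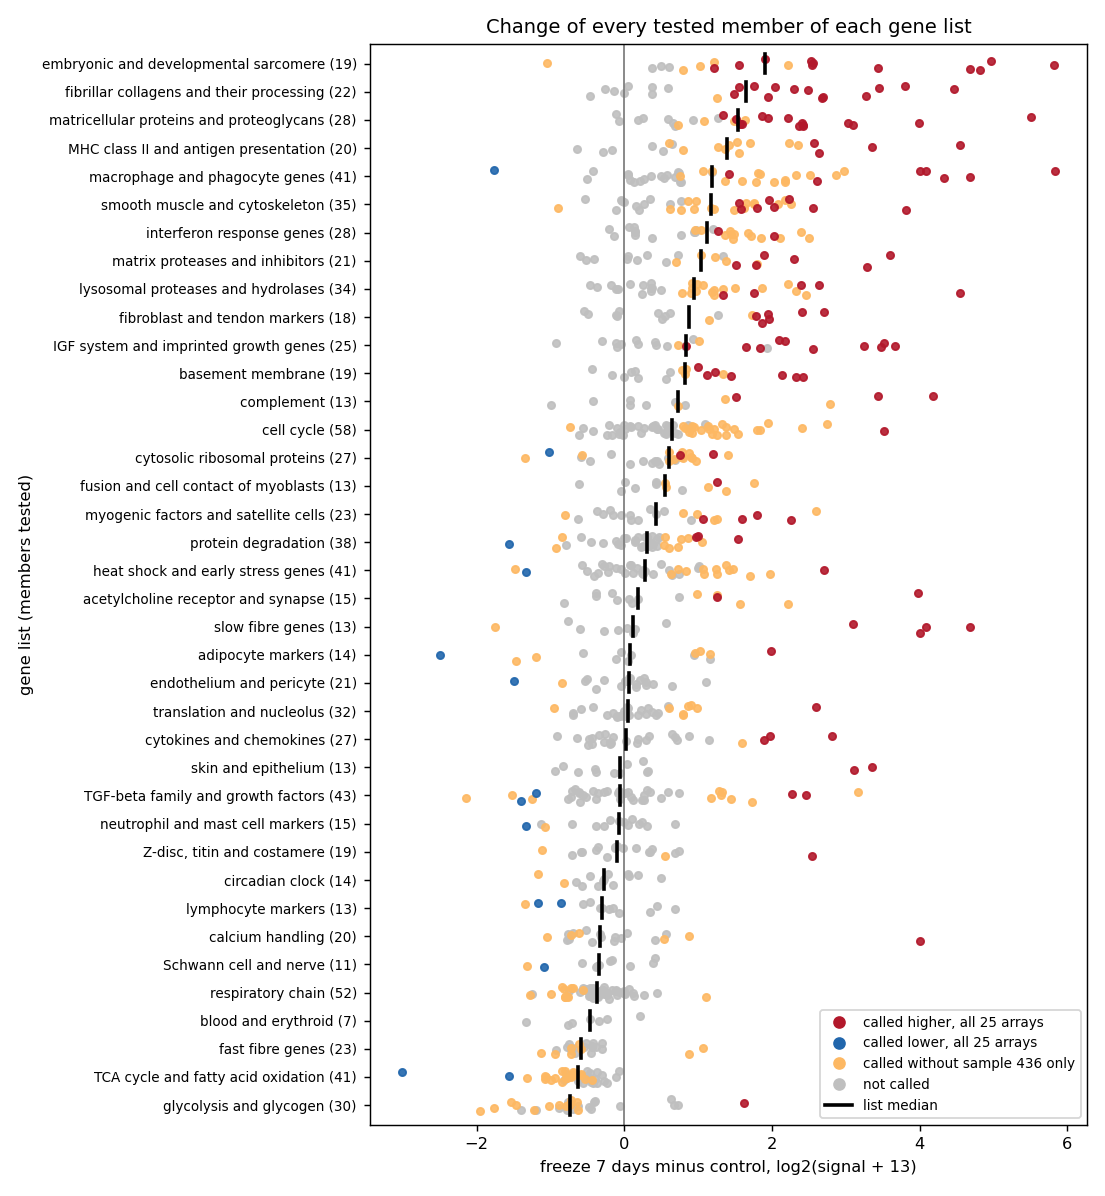
Change of every tested member of 38 gene lists (points, log2 of signal + 13, freeze at 7 days minus control), ordered by the list median (black bar), with the number tested in brackets. Red and blue points were called with all 25 arrays, orange points without sample 436 alone, and grey points in neither. Sarcomere, collagen and matricellular lists have the highest medians (1.90, 1.65 and 1.54) and glycolysis the lowest (-0.74).

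Of 43 growth factor genes 2 were higher (Fstl1 and Fgfr4) and 2 lower (Acvr2b and Smad6). Each is 4.65% of the list, against 3.82% higher and 1.78% lower among all genes. Without sample 436, 9 and 5 of the 43 were called, against 12.4% and 8.66% of all genes. Fstl1, a secreted follistatin-like protein, had 587.4 and 603.1 after freeze and 63.6 to 126.3 in controls (2.46 ± 0.51, adjusted p = 0.0093). Fgfr4, a growth factor receptor of myoblasts, had 99.4 and 71.5 against 5.4 to 11 (2.27 ± 0.55, adjusted p = 0.0218). Acvr2b, a receptor for myostatin, had 94.8 and 101.8 against 212.3 to 334.7 (-1.40 ± 0.33, adjusted p = 0.0199). Mstn, myostatin itself, had 72.0 and 70.5 after freeze and 184.3 to 272.4 in controls (-1.52 ± 0.49, adjusted p = 0.0692, and 0.0018 without 436). The 4 calls were lost without sample 440 or 454, and the falls also without control 1 or 3. The keratin genes Krt8 and Krt18, partners in the filaments of simple epithelia, rose by 3.11 ± 0.64 and 3.36 ± 0.70 (adjusted p = 0.00905 and 0.0093) with Krt18 at 484.1 and 372.7 after freeze and 27.2 to 33.8 in controls. They were the 2 rises among 13 skin and epithelium genes, lost without sample 440 or 454. Among 21 endothelial and pericyte genes none rose and the water channel gene Aqp1 fell (-1.50 ± 0.32, adjusted p = 0.0116), with its other probe set at -0.17. Cdh5, the cadherin of endothelium, had 483.1 and 473.4 after freeze and 330.7 to 424.9 in controls (0.39 ± 0.27, adjusted p = 0.379). Mbp, myelin basic protein, was the 1 fall among 11 Schwann cell and nerve genes (-1.09 ± 0.26, adjusted p = 0.0216), with its other probe set at 0.07. Adipocyte markers gave 1 rise (Scd1) and 1 fall (Plin4) among 14, or 4 and 3 without sample 436, and the rise was lost without sample 440. The calls of Aqp1 and Mbp were lost without sample 440 or 454, and that of Mbp also without control 1 or 3. By limma 0 of 7 blood and erythroid genes and 0 of 14 clock genes passed, with 1 and 3 at an unadjusted p under 0.05, and 1 rise, Atp2a2, was found among 20 calcium handling genes. Falls were 4.76% of endothelial, 9.09% of Schwann cell and 7.14% of adipocyte genes, against 1.78% of all genes. Rises were 15.4% of skin, 7.14% of adipocyte and 5% of calcium handling genes, against 3.82%.

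Against contraction injury at the same time, freeze was higher in 28 genes (0.405%) and lower in 0 (0%) by limma. At the level of probe sets this was 35 and 0, with 1028 at an unadjusted p under 0.05. Without sample 436, 418 genes were higher (6.04%) and 133 lower (1.92%). The 28 included matrix and fibroblast genes. Dpt had 311.2 and 285.5 after freeze and 44.4, 59.7 and 52.4 after contraction (2.26 ± 0.25, adjusted p = 3.81e-05). Tnc had 537.9 and 602.2 against 53.9, 35.4 and 36.0 (3.43 ± 0.66, adjusted p = 0.0218), and Col6a3 had 2877.4 and 3202.8 against 418.9, 939.7 and 518.2 (2.34 ± 0.47, adjusted p = 0.0293). Ccn3, a matricellular protein, stood at 2.42 ± 0.40 (adjusted p = 0.00523). P3h3 and Chpf, which modify collagen and chondroitin chains, stood at 2.31 ± 0.48 and 2.35 ± 0.48 (adjusted p = 0.0338 and 0.0328). Dlk1 had 620.8 and 715.1 after freeze and 119.2, 82.0 and 110.0 after contraction (2.55 ± 0.31, adjusted p = 0.000121). The developmental myosin Myh8 also differed, with 1520.5 and 1162.9 against 310.1, 507.1 and 467.1 (1.64 ± 0.31, adjusted p = 0.0204). The 35 probe sets came down to 7 without sample 440, 10 without 454, 8 without 425 and 9 without 453.

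Some other regeneration genes did not pass with all arrays although the arrays of the 2 injuries did not overlap. Tnni1 had 4151.2 and 4498.3 after freeze and 1187.1 to 2747.8 after contraction. Atp2a2 had 497.2 and 474.7 against 125.7, 153.6 and 136.5 (1.72 ± 0.42, adjusted p = 0.0666, and 0.000432 without 436). Others overlapped or came close. Myl4 had 2818.3 and 2527.6 after freeze and 1205.6, 3418.6 and 1715.5 after contraction (0.47 ± 0.58, adjusted p = 0.772). Igf2 had 6174.2 and 5497.5 against 2475.4, 5376.8 and 4117.8 (0.62 ± 0.35, adjusted p = 0.533), and Ankrd1 had 744.3 and 770.4 against 790.2, 766.7 and 753.9 (-0.02 ± 0.38, adjusted p = 0.988). Lgals3, galectin 3 of macrophages, had 546.5 and 444.0 after freeze and 572.6, 659.3 and 529.7 after contraction (-0.24 ± 1.14, adjusted p = 0.950), while Tyrobp had 505.3 and 523.2 against 46.7, 182.2 and 87.7 (2.32 ± 1.08, adjusted p = 0.446, and 0.00243 without 436). Both are macrophage markers, and they differ in value between the injuries by different amounts. Of 41 phagocyte genes 0 differed with all arrays, and 19 were higher after freeze without sample 436. Of the 28 matricellular genes 5 were higher after freeze, and 19 without sample 436. Of 19 sarcomere list genes 3 were higher after freeze, and without sample 436, 9 were higher and 1 lower. Of 25 genes of the IGF system and imprinted growth list 1 was higher, and 9 without sample 436. The sum of fibroblast markers was 11704 to 12208 after freeze and 2731 to 4840 after contraction, that of macrophage markers 4522 to 4814 and 1272 to 1986, and the actin ratio of contraction arrays was 0.522 to 0.716. Their part in these differences was not tested, and the fibroblast sum includes the matrix genes Col1a1 and Dcn.

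Against freeze at 3 days, freeze at 7 days was higher in 52 genes (0.752%) and lower in 7 (0.101%) with all arrays. Without sample 436, 643 were higher (9.29%) and 663 lower (9.58%). Of 77 probe sets called with all arrays, the number was 23 without sample 440 and 22 without 454, so that count too rests on both 7-day arrays. Perinatal myosin Myh8 had 1520.5 and 1162.9 at 7 days and was low at 3 days on all 3 arrays, at 59.8, 45.3 and 80.6 (4.19 ± 0.31, adjusted p = 4.42e-08). Embryonic Myh3 was already at 432.1 and 538.2 on samples 450 and 468, and at 11.4 on sample 436. Its difference was 2.65 ± 0.79 (adjusted p = 0.145) with all arrays and 1.20 ± 0.40 (adjusted p = 0.0412) without 436. Myog had 673.0 and 682.6 at 7 days and 2240.0 and 1796.8 on samples 450 and 468 at 3 days (-1.55 ± 0.35, adjusted p = 0.00318, without 436). Myf6 went the other way, with 1229.5 and 1048.8 at 7 days and 375.2, 163.1 and 222.2 at 3 days (2.19 ± 0.39, adjusted p = 0.00459). Chrna1 differed little, with 876.5 and 1075.8 at 7 days and 842.3 and 937.6 on samples 450 and 468 (0.13 ± 0.48, adjusted p = 0.915, without 436).

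Igf2 had 6174.2 and 5497.5 at 7 days and 545.7, 1007.3 and 1443.4 at 3 days (2.64 ± 0.35, adjusted p = 0.00023), and Dlk1 had 620.8 and 715.1 against 61.5, 102.5 and 98.3 (2.78 ± 0.31, adjusted p = 3.81e-05). Krt18 had 484.1 and 372.7 against 5.8, 41.7 and 36.1 (3.57 ± 0.70, adjusted p = 0.00947). For these 3 genes both 7-day arrays lay above all 3-day arrays. At 3 days Igf2 was above every control (534.6 to 636.4) on samples 450 and 468, and within the controls on 436. Without sample 436, 0 of 41 phagocyte genes were higher and 32 lower than at 3 days, with a median of -1.70, while with all arrays 1 was lower. Tyrobp had 505.3 and 523.2 at 7 days and 2835.7 and 2607.2 on samples 450 and 468 (-2.37 ± 0.50, adjusted p = 0.00161, without 436). Cell cycle genes had a median of -1.20 and 32 of 58 lower without 436. For fast fibre genes the median was 1.63, with 20 of 23 higher, and for respiratory chain genes 1.33, with 44 of 52 higher. All these list counts rest on leaving sample 436 out, since with all arrays 2 cell cycle, 0 fast fibre and 0 respiratory chain genes differed.

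**Figure D5:**
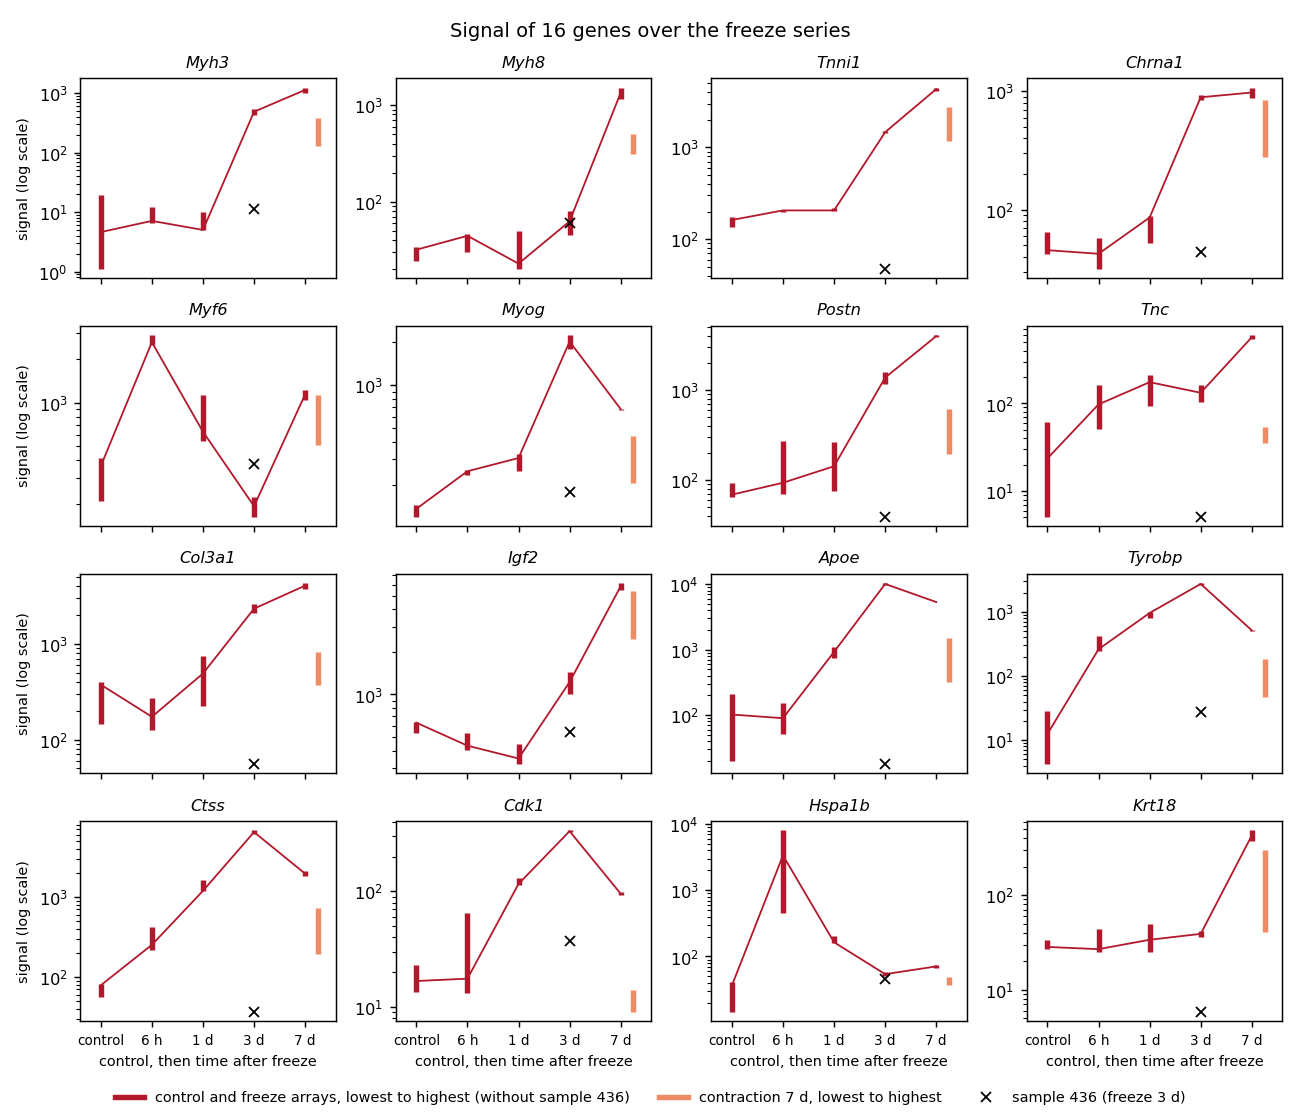
Signal (log axis) of 16 genes in control muscle and 6 h, 1 d, 3 d and 7 d after freeze, as the range from the lowest to the highest array (dark red bars) joined through the medians, without sample 436, which is marked by a cross. The range of the 3 contraction arrays at 7 days stands beside them (orange). Myh8 and Krt18 rise after 3 days, Myog, Tyrobp, Ctss and Cdk1 are highest at 3 days, and Hspa1b is highest at 6 h.

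Over the whole freeze series Myf6 had 2500.9 to 2915.9 at 6 hours, 546.4 to 1121.9 at 1 day and 163.1 to 222.2 at 3 days without sample 436, before its 7-day level of 1229.5 and 1048.8. Ccl2 had 877.9 to 2394.4 at 6 hours, 2172.8 to 2460.8 at 1 day and 572.5 to 723.2 at 3 days without sample 436, and was at 43.9 and 22.8 at 7 days. Hspa1b had 461.9 to 8044.3 at 6 hours, 160.5 to 204.0 at 1 day and 49.9 to 58.3 at 3 days without sample 436, and 74.1 and 67.6 at 7 days. Postn had 70.8 to 273.8 at 6 hours and 75.2 to 263.5 at 1 day, ranges that overlap that of the controls (65.7 to 93.4), and was at 1164.3 and 1602.0 on samples 450 and 468.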

How the data were processed

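RNA of 25 muscles was hybridised to 1 array each, in 9 groups. The values are intensity signals per probe set that the authors deposited, made with MAS5 (version not given) per the submitters' processing notes. The trimmed mean of each array, with 2% cut at each end, was 150.09 to 150.13, so the values are scaled. No raw scanner files were used here.

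Signals were taken to log2(signal + 13), with the 20th percentile of the signals as the added constant. Tests covered probe sets that passed the 40th percentile on at least 2 arrays (9506, of which 8488 had 1 symbol), while 2345 others with 1 symbol were not. Of the rest, 396 had several symbols and 1193 none. A single model over all 25 arrays was fitted with limma 3.58.1 in R 4.3.3 (eBayes with a trend), with Benjamini-Hochberg adjustment over all tested probe sets. Each gene is shown through its probe set of highest mean. Residual degrees of freedom were 16, and the number of arrays limits the precision. The test was checked on simulated data.

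Named genes were the 15 largest rises and falls, the 3 highest and lowest of each of 38 lists, set representatives, and the 8 highest and lowest in the contrasts with contraction and with 3 days (called, at least 2-fold, not overlapping). Id3, Chrnb1, Tnnc1, Tnni2, H2-Ab1, Ctsz, Cd63, Serping1, Ifi27, Ifi35, Smad6 and Fcer1g were named after their values were seen. Members and lists were chosen with earlier results of these data known. Alternatives are other pseudocounts, filters, scalings, fits and left-out arrays. Leaving all 3-day freeze arrays out was chosen after seeing the data.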

Additional observations from a re-analysis of the deposited data

Results flagged for a closer look

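Freeze at 7 days differed from contraction at 7 days, by limma's test of that difference, in 14 named genes, all higher after freeze. The differences in log2(signal + 13) were 3.43 for Tnc, 2.55 for Dlk1, 2.42 for Ccn3, 2.35 for Chpf, 2.34 for Col6a3, 2.31 for P3h3, 2.26 for Dpt, 2.19 for Arsa, 2.15 for Mfap2, 2.01 for Adam12, 1.64 for Myh8, 1.25 for Cdh5 and 0.95 for Ltbp4. Col4a1, which encodes a basement membrane collagen, differed by 1.28 (adjusted p = 0.0418). Its signals were 1370.0 and 1527.9 after freeze and 549.9, 896.6 and 411.1 after contraction. Some of these differences came with low values after contraction. Cdh5 had 188.2 to 203.7 after contraction, below all its controls (330.7 to 424.9). Against control, freeze was not called with all arrays for Cdh5, Col4a1, Adam12 or Ltbp4. Arsa, a lysosomal sulfatase, had 86.8 and 66.9 after freeze and 7.1, 8.4 and 4.6 after contraction (adjusted p = 0.0418).

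Freeze at 7 days was above freeze at 3 days by 4.19 for Myh8, 3.57 for Krt18, 3.02 for Tnc, 3.00 for Maged2, 2.78 for Dlk1, 2.76 for Myl4, 2.64 for Igf2, 2.63 for Plagl1, 2.19 for Myf6, 2.01 for Ccn3, 1.94 for Dpt and 1.46 for Actc1. Without sample 436 the value of Myl4 was 1.75, that of Tnc 2.03 and that of Maged2 2.28. It was below freeze at 3 days by the same test for 7 named genes. The mitotic kinases Aurka and Plk1 stood at -1.28 and -1.14, and the cholesterol transporter Npc1 at -1.15. The phospholipase Pla2g7 stood at -1.46, the adaptor Sla at -1.78, the carrier Slc25a45 at -1.93 and the fatty acid transporter Slc27a1 at -1.60.

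The beta-actin control probes, which no comparison used, gave a 3' to 5' ratio of 0.808 on freeze sample 440 and 0.776 on 454, above all 3 controls (0.560 to 0.595). Its part in the results was not tested.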

How the results depend on the processing

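Of 96 named genes called against control, 88 to 96 kept the call under each alternative fit that left no array of the 2 groups out. With the filter at the 60th percentile it was 92 of 93. These counts are at an adjusted p under 0.05 and do not cover the stricter cut-offs. None of these 96 genes changed sign under any alternative run. The 503 probe sets called against control (347 higher, 156 lower) became 96 at an adjusted p under 0.01, 2211 with array weights, 1079 with only the 2 groups in the fit and 1750 without any freeze array of 3 days. Leaving out single arrays gave 42 to 1855, the lowest without freeze sample 440 and the highest without 436. The 35 against contraction became 8 at 0.01, 18 with adjacent sample numbers as a random block, 1398 with array weights, 23 with median centring, 598 with only the 2 groups, 72 with a pseudocount of 32, 19 with one of 4, 602 without the 3-day freeze arrays and 7 to 691 without single arrays. The 77 against 3 days became 42 at 0.01, 2801 with array weights, 0 with only the 2 groups (388 at an unadjusted p under 0.05) and 22 to 1624 without single arrays. The cause of these shifts was not tested. In the fit with all arrays the median residual SD was 0.385, and 0.323 without sample 436. Median centring gave a median change of all probe sets of -0.11, against -0.06.

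No paired analysis was possible because the groups compared share no replicate number in the labels. Adjacent sample numbers, which no label calls pairs, entered only as the random block above (estimated correlation -0.105). With 2 freeze arrays, many calls need both arrays, and dim probe sets have folds that depend on the pseudocount. Of 155 called genes with several probe sets, 137 had only some of them called.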
